A study of Arabidopsis thaliana with 24 samples.

Results

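The 60 genes described here are nuclear genes of Arabidopsis thaliana that encode proteins of the cytosolic ribosome. They were chosen by gene identifier, with earlier results of these data known, from the 28775 genes counted in the study. They are only part of the cytosolic ribosomal protein genes: 99 other 60S genes and 70 other 40S genes were listed apart. They comprise 34 genes of the large (60S) subunit and 26 genes of the small (40S) subunit. All 60 identifiers matched 1 gene each. RefSeq gives a symbol for only some of them, and the others are named here by their locus identifier.

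The study compared dxo1 seedlings with ABA, dxo1 seedlings under the normal condition (NT), wild-type Col-0 seedlings with ABA and Col-0 seedlings under NT. DXO1 encodes an enzyme that removes NAD+ caps from RNA, and ABA (abscisic acid) is a plant stress hormone. The labels describe neither the dxo1 allele nor the ABA dose. All seedlings were 12 days old and had grown on 1/2 MS medium in 16 h of light. Each of the 4 groups had 2 libraries of total RNA, 2 of NAD-capped RNA and 2 of GMUCT, which sequences uncapped and cleaved transcripts and so reads RNA decay intermediates. The labels also call the tissue bud tissue. In total RNA the 7 floral organ markers, among them AP3 and AG, summed to 0 to 3.13 CPM per library, against 3336 to 5294 CPM for the 7 green leaf markers. Nothing in the labels says that replicates came from separate cultures, so p-values measure the spread between labelled libraries, which may be technical.

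A cytosolic ribosome joins a small subunit, which decodes the mRNA, to a large subunit, which forms the peptide bond. Its proteins are needed in matched amounts, and in plants each is encoded by several near-copies (paralogues), so 1 protein can come from RNA of different genes. Ribosomal protein mRNAs are among the most abundant mRNAs of growing tissue, and their production is tied to growth signals such as TOR (target of rapamycin) kinase. A 5′ NAD+ cap takes the place of the usual cap on a fraction of transcripts.

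The assays differed in depth. Counts assigned to genes ran from 878113 to 2027552 per total RNA library, from 750596 to 1526203 per NAD library and from 5793714 to 13940464 per GMUCT library. Nuclear protein-coding genes held 12.73% to 26.35% of these counts in total RNA, 2.17% to 17.73% in NAD and 95.7% to 96.7% in GMUCT. The share of 2.17% was that of the first Col-0 ABA NAD library, which had 1526203 counts in genes. The 60 genes together held 1187 to 4396 counts in total RNA, 561 to 3479 in NAD and 71838 to 226682 in GMUCT. The lowest of these, 561 counts, was the first Col-0 ABA NAD library, which correlated with its replicate at r = 0.715 across genes, against 0.878 to 0.914 in the other NAD groups. The DXO1 transcript had 1 to 8 counts per total RNA library, too few to compare. In GMUCT it was lower in dxo1 by a log2 change of -0.87 ± 0.18 with ABA (adjusted p = 0.001328) and -0.50 ± 0.17 under NT (adjusted p = 0.04395). In these bulk samples, fewer cells of a type and less RNA per cell cannot be told apart.

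The ribosomal protein genes were ranked in nearly the same order by the NAD libraries and by total RNA, and in a different order by GMUCT. Levels were compared per kilobase of exon after scaling each library by TMM (a trimmed mean of ratios between libraries). The Spearman rho across the 60 genes was 0.87 between NAD and total RNA, 0.45 between GMUCT and total RNA and 0.45 between GMUCT and NAD. These values describe order across genes, which share libraries and gene lengths. In total RNA the highest 60S level was that of emb2386, which encodes eL19, at 152.8 CPM per kilobase, against a median of 27.5 for the 34 genes. The highest 40S level in total RNA was that of AT2G41840 (uS5), at 60.5 CPM per kilobase, against a median of 19.1. The NAD libraries had the same leading genes, emb2386 at 130.9 and AT2G41840 at 73.2 CPM per kilobase. GMUCT was led instead by RPS15A (uS8) at 1400 CPM per kilobase among 40S genes and by AT1G01100, a P1 protein of the acidic stalk, at 712 among 60S genes. RPL10B (uL16) and RPSAb (uS2) had the lowest levels of their subunit in all 3 assays.

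A single gene took a large part of some sums. RPS15A, at chr1:2407411-2409791 on the minus strand, held 27.9% to 39.2% of all 40S counts in each GMUCT library. Of the 50-base windows of its transcript, 90.5% were unique. Only AT1G07780 was found to share any of the others. AT5G02870, 1 of the 2 uL4 genes listed here, was the leading 60S gene in several total RNA libraries and reached 25.3% of the 60S counts in the second dxo1 ABA library. The sums below are therefore given with and without these genes where that matters. AT1G33120 (uL6) shares more than any other member with a near-copy: 46.6% of its windows were unique, so its counts are uncertain.

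As a share of the counts in nuclear protein-coding genes, the 60 ribosomal protein genes together were higher in dxo1 than in Col-0 in all 3 assays and under both treatments, without overlap between replicates. In total RNA the share was 1.53% and 1.29% in dxo1 with ABA, against 1.03% and 1.06% in Col-0 with ABA. Under NT it was 1.62% and 1.34% in dxo1, against 1.04% and 0.765% in Col-0. The lowest dxo1 library thus lay above the highest Col-0 library. In NAD the share was 2.37% and 2.36% in dxo1 with ABA and 1.69% and 1.85% in Col-0 with ABA. Under NT it was 2.01% and 2.13% in dxo1 NAD libraries and 1.66% and 1.55% in Col-0 NAD libraries. The 4 dxo1 NAD libraries were again all above the 4 Col-0 ones. In GMUCT the share was 1.69% and 1.83% in dxo1 with ABA, against 1.40% and 1.29% in Col-0 with ABA. Under NT it was 1.63% and 1.73% in dxo1, against 1.44% and 1.48% in Col-0. The 60S share alone was likewise apart in each assay and treatment. The 40S share overlapped in total RNA with ABA, at 0.514% and 0.331% in dxo1 against 0.334% and 0.374% in Col-0, and was higher in dxo1 without overlap in the other 5 cases. These shares are sums over a given gene list and carry no test, and they move with every other gene in the denominator. Such sums follow the most abundant genes and need not describe most genes. In total RNA under NT the median log2 change for dxo1 against Col-0 was 0.20 over 60S and 0.03 over 40S genes. Over all genes it was -0.004. With 1 library left out it ran from 0.08 to 0.23 over 60S and from -0.11 to 0.05 over 40S genes. In GMUCT with ABA the log2 change was above 0 in 10 40S genes and below 0 in 16. Over all 19644 genes these were 9954 and 9690. Without AT5G02870 the total RNA share averaged 1.24% ± 0.27 in dxo1 and 0.948% ± 0.013 in Col-0 with ABA, and 1.31% ± 0.22 in dxo1 and 0.858% ± 0.21 in Col-0 under NT (SD, n = 2 each). In total RNA, sums over other cytosolic ribosomal protein genes did not all go the same way. With ABA the 99 60S genes among them summed to 12774 and 10615 CPM in dxo1 and 12686 and 13510 CPM in Col-0. Under NT these 60S genes had 4383 and 13168 CPM in dxo1 and 14598 and 28887 CPM in Col-0. Replicates of this 60S sum thus differed widely under NT. Which of the 99 genes led it was not examined, so it need not describe most of them. The 70 40S genes among them summed to 1252 and 1597 CPM in dxo1 and 851 and 839 CPM in Col-0 with ABA. Under NT these 40S genes had 976 and 1394 CPM in dxo1 and 807 and 844 CPM in Col-0. Markers of dividing cells (12 genes, such as CYCB1;1 and CDKB1;1) summed in total RNA to 38.7 and 34.1 CPM in dxo1 with ABA, 27.3 and 39.6 CPM in Col-0 with ABA, 50.0 and 43.0 CPM in dxo1 under NT and 27.4 and 30.2 CPM in Col-0 under NT. In GMUCT they summed to 221 and 231 CPM in dxo1 with ABA, 184 and 173 CPM in Col-0 with ABA, 256 and 237 CPM in dxo1 under NT and 224 and 198 CPM in Col-0 under NT. The 7 green leaf markers summed in total RNA to 3878 and 3336 CPM in dxo1 and 4220 and 4384 CPM in Col-0 with ABA. Under NT the leaf markers summed to 3623 and 3543 CPM in dxo1 and 5294 and 4748 CPM in Col-0. The part of dividing cells or of leaf genes in the shares was not tested.

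**Figure D1:**
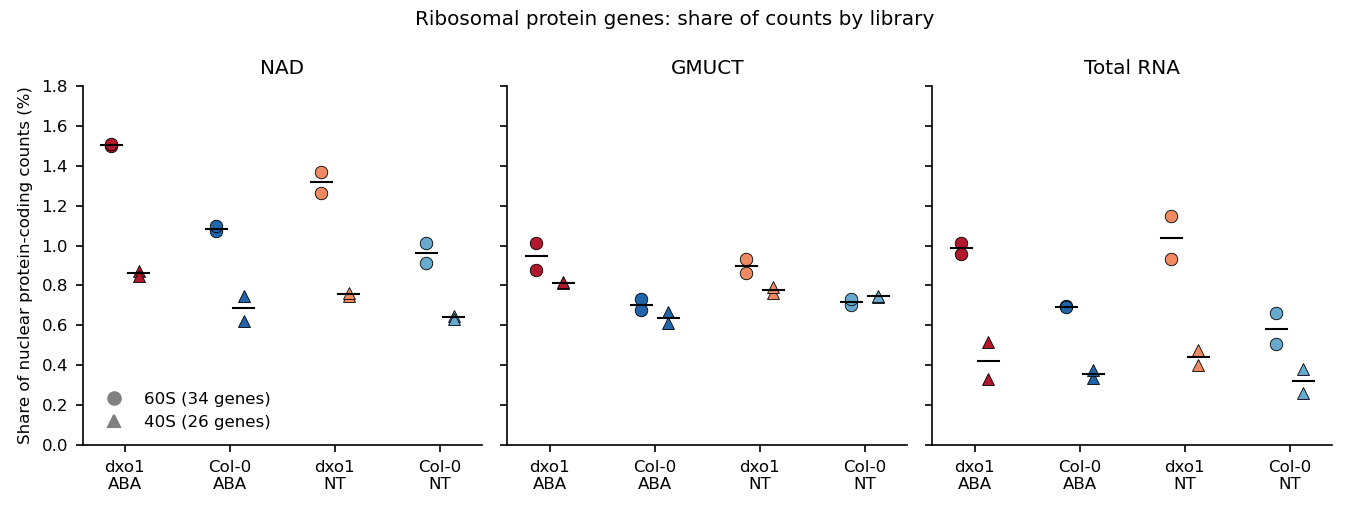
Share of nuclear protein-coding counts (%, vertical axis) held by the 34 60S genes (circles) and the 26 40S genes (triangles) in each library of 4 groups, by assay; bars are means of 2 libraries. In every assay and treatment the 60S circles of dxo1 lie above those of Col-0; the 40S triangles overlap in total RNA with ABA.

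The 60S genes held 2.43 ± 0.66 times the counts of the 40S genes in total RNA of dxo1 with ABA and 1.96 ± 0.17 times in Col-0 with ABA. Under NT the ratio was 2.37 ± 0.06 in dxo1 and 1.84 ± 0.15 in Col-0. In GMUCT the ratio was 1.16 ± 0.11 in dxo1 and 1.102 ± 0.006 in Col-0 with ABA, and 1.16 ± 0.03 in dxo1 and 0.962 ± 0.024 in Col-0 under NT (SD, n = 2 for each ratio). Without RPS15A the GMUCT ratio was 1.65 in dxo1 and 1.63 in Col-0 with ABA, and 1.62 in dxo1 and 1.57 in Col-0 under NT. The ratio in GMUCT thus depended on 1 gene. Without AT5G02870 the total RNA ratio was 1.98 ± 0.27 in dxo1 and 1.68 ± 0.17 in Col-0 with ABA, and 1.98 ± 0.15 in dxo1 and 1.68 ± 0.05 in Col-0 under NT. In NAD the ratio over all members was 1.75 ± 0.04 in dxo1 and 1.59 ± 0.19 in Col-0 with ABA, and 1.74 ± 0.07 in dxo1 and 1.502 ± 0.08 in Col-0 under NT (SD, n = 2 for each ratio).

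No ribosomal protein gene passed the test in total RNA. Of the 60 genes, 53 had enough counts to test (29 of 60S and 24 of 40S), and edgeR's quasi-likelihood test with Benjamini-Hochberg adjustment called 0 in each of 5 comparisons; DESeq2's Wald test also called 0. At an unadjusted p under 0.05 there were 6 genes for dxo1 against Col-0 with ABA, 4 for dxo1 against Col-0 under NT, 3 for ABA against NT in dxo1, 3 for ABA against NT in Col-0 and 3 for the difference between the 2 ABA responses. Over all 4965 genes there were 488, 670, 520, 607 and 293 at that threshold, in the same order of comparisons. The assay called few genes of any kind: 0% of the 4965 genes tested as higher and 0.0403% as lower for dxo1 against Col-0 with ABA, and 0% as higher and 0.0604% as lower under NT. For ABA against NT it called 0.544% higher and 0.181% lower in dxo1, and 0.363% higher and 0.0806% lower in Col-0. The smallest p for dxo1 against Col-0 with ABA was that of SAG24, a senescence-associated uL16 gene. Its level was 84.2 and 88.9 CPM in dxo1 with ABA, against 35.4 and 35.5 CPM in Col-0 with ABA, a log2 change of 1.28 ± 0.33 (adjusted p = 0.2271). The 2 groups did not overlap for SAG24, which still missed the threshold. The median log2 change for dxo1 against Col-0 with ABA was 0.40 over the 60S genes tested and 0.08 over the 40S genes, against 0.04 over all genes. Without the first dxo1 ABA library these medians were 0.15, -0.13 and -0.05; without the second they were 0.49, 0.42 and -0.01, and without the second Col-0 ABA library 0.27, 0.28 and 0.07. Without the first dxo1 ABA library, 5 members passed in this comparison, as did 6.28% of all genes. For ABA against NT in dxo1, 1 member passed without the first dxo1 ABA library (3.74% of all genes) and 1 without the second (2.46% of all genes).

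GMUCT held the most counts of ribosomal protein genes, and all 60 were tested there. With ABA, dxo1 differed from Col-0 in 12 of them: 8 were higher, of which 6 were 60S genes, and 4 were lower, 2 in each subunit. Over all 19644 genes tested, 14.8% were called higher and 15.8% lower. Under NT, 9 genes were higher in dxo1 (4 of 60S, 5 of 40S) and 3 were lower (1 of 60S, 2 of 40S), against 10.1% and 10.4% of all genes. The members' shares were therefore close to those of all genes, apart from a smaller share lower in dxo1. The median log2 change was 0.08 over 60S genes and -0.14 over 40S genes with ABA, and 0.21 and 0.01 under NT; over all genes it was 0.01 under each treatment. With ABA the 60S median was 0.00 without the second dxo1 or the second Col-0 library and 0.18 without the first Col-0 library, where the 40S median was -0.01.

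The genes higher in dxo1 under both treatments were RPL16A, AT1G15930, RPS6 and AT1G77940, in comparisons that share no library. The calls of RPS6 and AT1G77940 under NT were lost in most fits with 1 library left out. RPL16A, at chr2:17791692-17793142 on the plus strand, encodes uL5, which joins the large subunit as part of a complex with 5S rRNA. Its GMUCT level was 9.06 and 9.54 CPM in dxo1 with ABA, against 4.24 and 2.52 CPM in Col-0 with ABA. Under NT it was 9.55 and 10.8 CPM in dxo1, against 2.69 and 3.45 CPM in Col-0. All 4 dxo1 libraries were above all 4 Col-0 libraries. The log2 change was 1.45 ± 0.29 with ABA (adjusted p = 0.0009868) and 1.73 ± 0.26 under NT (adjusted p = 0.0001261). A near-copy, AT3G58700, shares part of its sequence: 91.6% of the windows of RPL16A were unique.

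AT1G15930 and RPS6 are 40S genes. AT1G15930, at chr1:5471316-5473048 on the plus strand, encodes eS12 and had 528 and 614 CPM in dxo1 with ABA, against 278 and 281 CPM in Col-0 with ABA. Under NT it had 480.3 and 552 CPM in dxo1 GMUCT libraries, against 292 and 286 CPM in Col-0. The groups were far apart, with log2 changes of 1.03 ± 0.16 (adjusted p = 6.007e-05) with ABA and 0.84 ± 0.15 (adjusted p = 0.0008978) under NT. RPS6, at chr4:15345979-15347804 on the minus strand, encodes eS6, the protein phosphorylated by S6 kinase downstream of TOR. Its level was 821 and 872 CPM in dxo1 with ABA, against 473 and 474 CPM in Col-0 with ABA. Under NT it was 669 and 776 CPM in dxo1, against 508 and 492 CPM in Col-0. The gap was wider with ABA, at 0.84 ± 0.15 on the log2 scale (adjusted p = 0.0004049), than under NT, at 0.53 ± 0.15 (adjusted p = 0.01915), but the difference between the 2 did not pass the test. AT1G77940 (eL30) changed by 0.50 ± 0.17 with ABA and 0.60 ± 0.17 under NT.

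Other genes were called in 1 treatment. RPL24A (eL24) had 235 and 210.3 CPM in dxo1 with ABA, against 122 and 110.3 CPM in Col-0 with ABA, a log2 change of 0.94 ± 0.16 (adjusted p = 0.0001718). Its paralogue STV1, known for a part in translation reinitiation, had 76.9 and 81.4 CPM in dxo1 with ABA and 93.1 and 79.4 CPM in Col-0 with ABA, and these groups overlapped. RPL23AA (0.66 ± 0.19), SAG24 (0.61 ± 0.18) and AT5G02870 (0.53 ± 0.16) were also higher in dxo1 with ABA. Under NT the further genes were RPSAb (0.85 ± 0.27), AT5G27850 (0.71 ± 0.18), EMB3010 (0.67 ± 0.19), RPL18 (0.54 ± 0.16) and RPS5B (0.50 ± 0.16).

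Genes lower in dxo1 included RS27A, called under both treatments, though its call under NT was lost whichever library was left out. RS27A, at chr3:22611521-22612905 on the plus strand, encodes eS27 and had 60.7 and 56.7 CPM in dxo1 with ABA, against 122.6 and 102.4 CPM in Col-0 with ABA. Under NT it had 50.2 and 56.0 CPM in dxo1, against 68.3 and 81.8 CPM in Col-0. The highest dxo1 library was below the lowest Col-0 library, and the log2 change was -0.94 ± 0.16 with ABA (adjusted p = 0.0002384) and -0.50 ± 0.16 under NT (adjusted p = 0.03366). With ABA, AT3G11250, which encodes uL10 (P0, the base of the stalk), had 30.02 and 41.3 CPM in dxo1 against 65.2 and 64.1 CPM in Col-0, a log2 change of -0.85 ± 0.18 (adjusted p = 0.001634). AT1G01100, the P1 gene, had 451 and 525 CPM in dxo1 against 775 and 694 CPM in Col-0 with ABA, a log2 change of -0.59 ± 0.16 (adjusted p = 0.007642). Under NT the other uL10 gene, AT3G09200, changed by -0.48 ± 0.15 (adjusted p = 0.03191). RPS15A changed under NT by -0.54 ± 0.16 (adjusted p = 0.02116), with 1937 and 1988 CPM in dxo1 against 2810 and 2897 CPM in Col-0. Neither of these NT calls was kept in every fit with 1 library left out.

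Of 10 members with the largest GMUCT changes between dxo1 and Col-0 with ABA, 7 kept their call whichever library was left out, namely RPL16A, RPL24A, AT1G15930, RPS6, RS27A, AT3G11250 and AT2G21580. Under NT the count fell from 12 to 2 without either Col-0 NT library or without the second dxo1 NT library; RPL16A and AT1G15930 kept their call in all 4 cases. Scaling by library size alone, which moves the median of all genes by 0.17 under NT and 0.28 with ABA, gave 22 higher and 3 lower with ABA and 19 higher and 0 lower under NT.

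With ABA in Col-0 the GMUCT level of 8 ribosomal protein genes was higher than under NT, 6 of them 40S genes, and that of 0 was lower; over all genes tested 14% were higher and 12.8% lower. In dxo1, edgeR called 0 members for ABA against NT, and 0 also at an unadjusted p under 0.05, a threshold met by 3458 of 19644 genes; DESeq2's Wald test also called 0, and over all genes 5.15% were higher and 2.53% lower. Without the first dxo1 ABA library 2 members passed, as did 7.47% of all genes. AT2G21580, which encodes eS25, lies at chr2:9236481-9237846 on the plus strand. It had 158 and 150 CPM in Col-0 with ABA, against 89.6 and 92.6 CPM in Col-0 under NT, a log2 change of 0.76 ± 0.15 (adjusted p = 0.00092). In dxo1 it had 85.4 and 98.9 CPM with ABA, against 94.5 and 90.8 CPM under NT. Only the 2 Col-0 ABA libraries of these 8 stood apart. EMB3010, the second eS6 gene, had 171 and 202 CPM in Col-0 with ABA, against 97.7 and 109 CPM in Col-0 under NT, a log2 change of 0.85 ± 0.19 (adjusted p = 0.002356). In dxo1 it had 130.3 and 166 CPM with ABA, against 132 and 198 CPM under NT, and these groups overlapped.

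The remaining 6 genes higher with ABA in Col-0 were AT5G15200 (uS4, 0.85 ± 0.20), AT3G11250 (uL10, 0.64 ± 0.18), RS27A (eS27, 0.59 ± 0.16), emb2386 (eL19, 0.55 ± 0.16), P40 (uS2, 0.53 ± 0.17) and AT3G02080 (eS19, 0.49 ± 0.17). The call of AT3G11250 was lost whichever library was left out. The difference between the ABA response of dxo1 and that of Col-0 was tested as an interaction. It was lower in 2 members, EMB3010 at -1.005 ± 0.27 (adjusted p = 0.02174) and AT2G21580 at -0.76 ± 0.21 (adjusted p = 0.02906), and higher in 0, against 4.67% and 4.26% of all genes. This comparison shares the Col-0 ABA libraries with both ABA against NT in Col-0 and dxo1 against Col-0 with ABA. It was not steady: 0 members passed without either Col-0 NT library, the second Col-0 ABA library, the first dxo1 ABA library or the second dxo1 NT library. The count for ABA in Col-0 fell from 8 to 2 without the first Col-0 NT or first Col-0 ABA library and to 3 without the second Col-0 NT library, and AT2G21580 passed in all 4 cases. By library size scaling, which shifts the median of all genes by -0.14, 5 members were higher and 5 lower with ABA in Col-0.

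**Figure D2:**
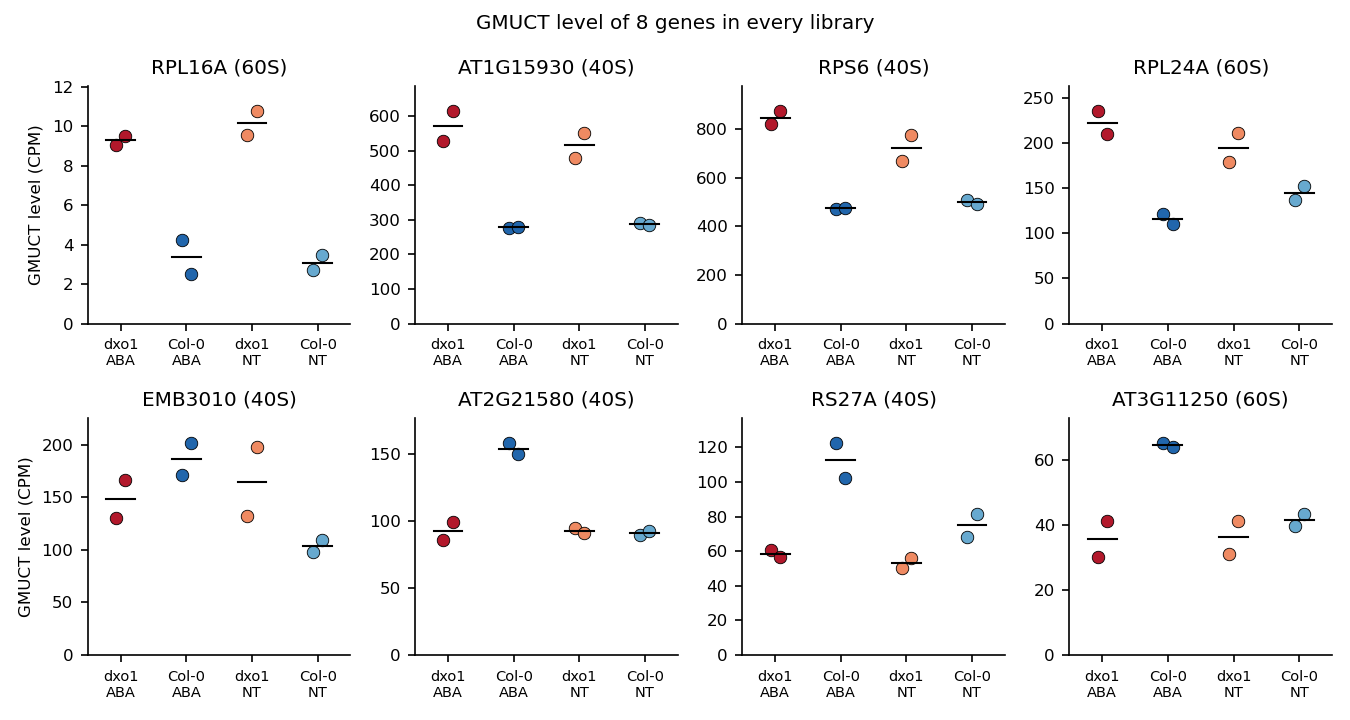
GMUCT level (TMM-scaled CPM, vertical axis from 0) of 8 genes in each library of 4 groups; points are libraries and bars are means of 2. In the upper row the dxo1 points lie above the Col-0 points; in the lower row Col-0 with ABA has the highest mean, and for EMB3010 1 dxo1 NT library lies between the 2 Col-0 ABA libraries.

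The 250 bases before the annotated starts of 6 of these genes are shown because their GMUCT levels moved in opposite ways: RPL16A, AT1G15930 and RPS6 were higher in dxo1 under both treatments, while RS27A, AT2G21580 and AT3G11250 were lower in dxo1 with ABA and higher with ABA in Col-0. Capitals mark site II elements (TGGGCC or TGGGCT) and telo boxes (AAACCCTA) on either strand; both are promoter elements long associated with plant ribosomal protein genes. The sequences are from RefSeq, build TAIR10.1, each written 5′ to 3′ on the gene's strand, and span chr2:17791442-17791691 (+), chr1:5471066-5471315 (+), chr4:15347805-15348054 (-), chr3:22611271-22611520 (+), chr2:9236231-9236480 (+) and chr3:3521079-3521328 (+) in the order printed.
RPL16A: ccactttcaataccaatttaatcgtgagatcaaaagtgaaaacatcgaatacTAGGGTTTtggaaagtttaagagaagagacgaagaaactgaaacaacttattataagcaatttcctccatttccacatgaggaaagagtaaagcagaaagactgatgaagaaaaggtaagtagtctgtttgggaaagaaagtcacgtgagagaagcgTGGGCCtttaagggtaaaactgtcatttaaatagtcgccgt
AT1G15930: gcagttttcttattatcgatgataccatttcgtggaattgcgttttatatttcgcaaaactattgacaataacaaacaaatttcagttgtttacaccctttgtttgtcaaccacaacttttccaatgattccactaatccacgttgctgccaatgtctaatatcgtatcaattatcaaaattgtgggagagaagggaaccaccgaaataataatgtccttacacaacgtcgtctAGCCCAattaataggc
RPS6: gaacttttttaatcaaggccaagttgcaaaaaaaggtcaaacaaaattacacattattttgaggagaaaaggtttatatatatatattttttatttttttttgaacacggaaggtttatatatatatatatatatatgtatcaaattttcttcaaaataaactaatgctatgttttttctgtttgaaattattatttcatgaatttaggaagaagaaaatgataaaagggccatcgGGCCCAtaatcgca
RS27A: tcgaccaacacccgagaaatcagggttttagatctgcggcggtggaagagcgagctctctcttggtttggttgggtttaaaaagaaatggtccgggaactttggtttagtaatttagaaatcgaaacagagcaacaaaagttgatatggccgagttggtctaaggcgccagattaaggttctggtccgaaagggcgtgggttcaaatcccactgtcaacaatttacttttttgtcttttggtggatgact
AT2G21580: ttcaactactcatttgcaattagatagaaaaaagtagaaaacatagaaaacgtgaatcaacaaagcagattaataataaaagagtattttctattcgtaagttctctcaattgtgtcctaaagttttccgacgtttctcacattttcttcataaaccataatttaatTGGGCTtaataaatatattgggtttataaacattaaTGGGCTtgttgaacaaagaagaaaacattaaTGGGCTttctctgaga
AT3G11250: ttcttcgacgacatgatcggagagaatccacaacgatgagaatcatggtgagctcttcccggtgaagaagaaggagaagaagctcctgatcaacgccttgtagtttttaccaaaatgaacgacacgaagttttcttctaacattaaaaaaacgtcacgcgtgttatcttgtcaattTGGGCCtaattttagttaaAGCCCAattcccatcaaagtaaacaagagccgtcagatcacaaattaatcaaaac

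RPL16A held 1 telo box and 1 site II element, AT1G15930 and RPS6 1 site II element each, RS27A neither, AT2G21580 3 site II elements and AT3G11250 2. Neither set was set apart by a motif. Over all 60 genes, 68.3% held a site II element (70.6% of 60S and 65.4% of 40S genes), against 19.4% of 26709 nuclear protein-coding genes with windows of the same length. A telo box was found in 18.3% of the 60 genes, against 4.44% of all. Other cytosolic ribosomal protein genes had a site II element in 71.7% of 99 60S genes and 67.1% of 70 40S genes, and nuclear genes of plastid ribosomal proteins held it in 36.7% of 30. In RPS5A a site II element and a telo box overlap by 1 base, and in AT5G27850 and EMB3010 site II matches on the 2 strands overlap. A match describes letters only, not binding.

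**Figure D3:**
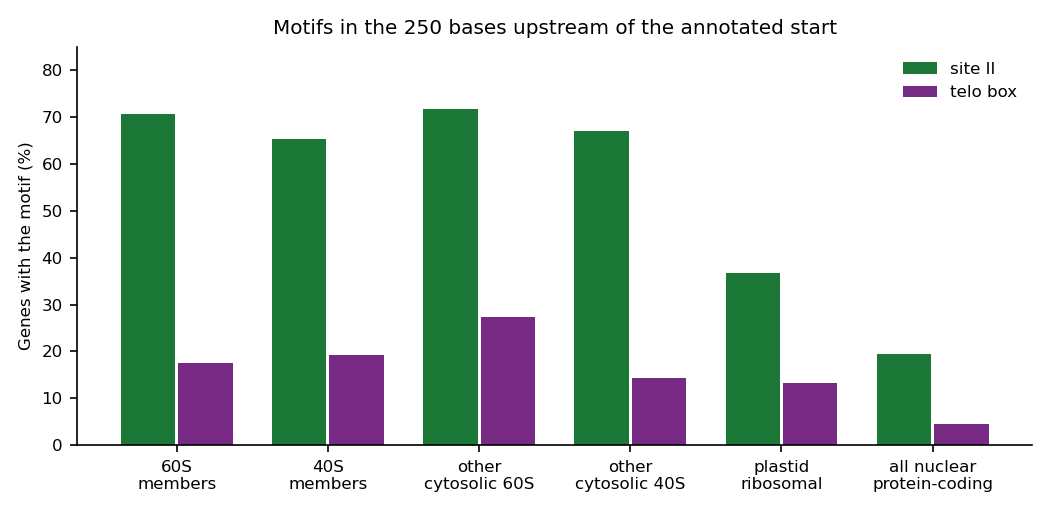
Percent of genes (vertical axis) with a site II element (green) or a telo box (purple) in the 250 bases upstream, in the 34 60S and 26 40S genes, in other ribosomal protein genes and in all nuclear protein-coding genes. Site II is found in 70.6% and 65.4% of the genes described here, against 19.4% of all nuclear protein-coding genes.

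Relative to total RNA, GMUCT was higher for some ribosomal protein genes and lower for others. GMUCT and total RNA libraries were fitted in 1 model. In dxo1, 20 genes were higher and 16 lower in GMUCT with ABA, and 24 higher and 13 lower under NT. In Col-0, 20 were higher and 11 lower with ABA, and 20 higher and 13 lower under NT. Over all 17930 genes tested, 17.8% were higher and 12.7% lower in dxo1 with ABA, 18.2% and 12.0% in dxo1 under NT, 18.6% and 11.4% in Col-0 with ABA, and 17.6% and 9.75% in Col-0 under NT. Higher in all 4 conditions were 15 genes (7 of 60S, 8 of 40S), and lower in all 4 were 7 (5 of 60S, 2 of 40S). How many of all genes were called in all 4 conditions, or in at least 1, was not counted. Without the first Col-0 NT total RNA library, 21 rather than 33 members were called in Col-0 under NT. RPSAb and RPL10B had 0 total RNA counts in some groups, so no fold is given for them. Of the other 58 members, 27 were called higher in at least 1 condition and 19 lower in at least 1, and 0 were called in both directions.

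RPS15A and AT3G04920 (eS24) had the highest ratios: their log2 GMUCT over total RNA lay between 2.43 and 3.49 for RPS15A and between 2.43 and 3.56 for AT3G04920. AT3G24830 (uL13) had the lowest, between -4.29 and -2.89, followed by P40 between -3.17 and -2.20. AT3G24830 had 27.3 and 27.5 CPM in GMUCT and 77.3 and 57.6 CPM in total RNA of dxo1 with ABA. In Col-0 with ABA it had 41.9 and 22.3 CPM in GMUCT and 42.7 and 46.7 CPM in total RNA. These CPM were scaled within each assay, while the log2 ratios came from the model fitted to both assays. The CPM of the 2 assays are not on a common scale, so the log2 ratio cannot be read from them. P40, the uS2 gene with 97.6% of the uS2 counts in total RNA of dxo1 with ABA and 97.7% in Col-0 with ABA, overlaps the gene ERF73 on the opposite strand by 124 bases. These ratios depend on how the 2 assays are scaled to each other: by library size, the median of all genes lay between 2.51 and 2.97, and the lower set shrank to 0 or 1 gene per condition.

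Without RPSAb and RPL10B, 19 protein families had 2 or more members here. In 12 families the members' median log2 ratios over the 4 conditions lay on both sides of 0, and in 7 on 1 side; of the 58 members, 36 had a median above 0. In 8 families 1 member was called higher and another lower in the same condition. The side of 0 depends on how the 2 assays are scaled to each other. The median of all genes lay between 0.26 and 0.51 in the 4 conditions. By library size scaling, 0 or 1 member per condition was called lower, so most of these opposite calls were lost. Families of other genes were not counted. The examples below were chosen after their values were seen. Of the 2 uL4 genes, AT3G09630 had log2 GMUCT over total RNA of 1.88 ± 0.29 in dxo1 with ABA, 1.93 ± 0.31 in Col-0 with ABA, 2.20 ± 0.30 in dxo1 under NT and 2.54 ± 0.33 in Col-0 under NT. The other uL4 gene, AT5G02870, had -2.32 ± 0.35, -2.06 ± 0.35, -2.28 ± 0.35 and -0.85 ± 0.36 in the same order of conditions, the last not passing the test (adjusted p = 0.07031). AT3G09630 supplied 12.3% of the uL4 counts in total RNA of dxo1 with ABA and 14.9% in Col-0 with ABA, but 71.2% and 73.1% in GMUCT of those groups. Of the eS12 genes, AT1G15930 was higher in GMUCT in all 4 conditions (0.89 to 1.89), while AT2G32060 was lower in 3 (-2.02 to -0.82 over the 4). AT2G32060 overlaps AT2G32050 on the same strand by 133 bases, and 91.3% of its windows were unique. Of the uL16 genes, SAC52, found as a suppressor of the acaulis dwarf, lay between 1.14 and 1.86, and SAG24 between -0.67 and 0.03. Of the eL8 genes, AT3G62870 lay between -2.22 and -1.62, and AT2G47610 between -0.02 and 1.33. For the eS6 pair, RPS6 lay between 1.21 and 1.65 and EMB3010 between -0.81 and 0.04.

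**Figure D4:**
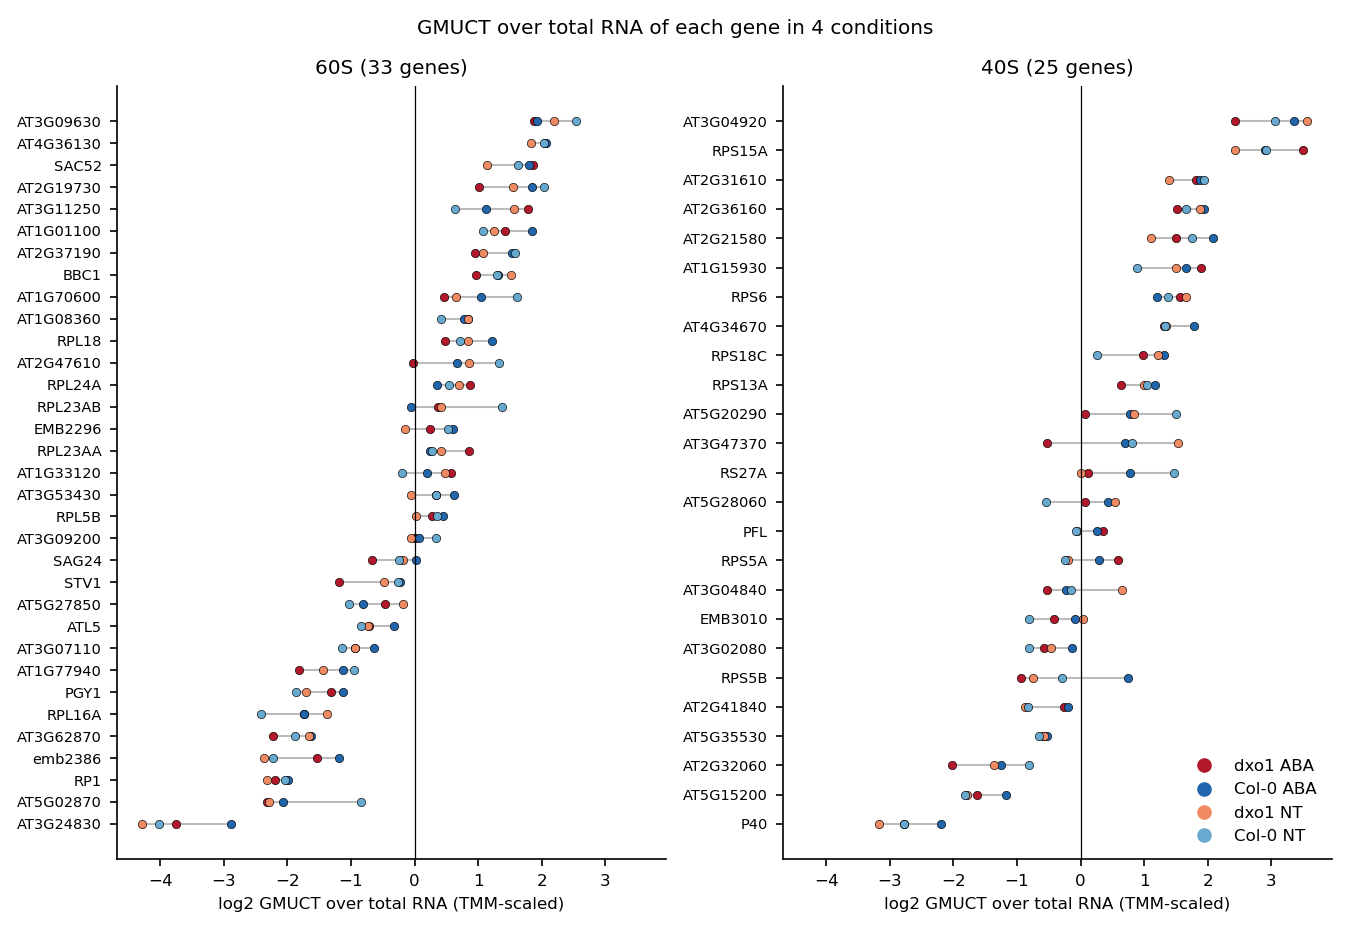
log2 GMUCT over total RNA (horizontal axis, TMM-scaled) of 33 60S and 25 40S genes, 1 row per gene, with a point for each of 4 conditions; RPL10B and RPSAb, at 0 total RNA counts in some groups, are not drawn. All 4 points lie above 0 for 26 genes and below 0 for 18, from AT3G24830 at -4.29 to AT3G04920 at 3.56.

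No change of this ratio passed the test in a member. For ABA against NT and for dxo1 against Col-0, edgeR called 0 of 60 members in 4 comparisons. At an unadjusted p under 0.05 there were 6 members for ABA in Col-0, 7 for ABA in dxo1, 5 for dxo1 under NT and 3 for dxo1 with ABA. Of all 17930 genes there were 2117, 1372, 1708 and 2054 at that threshold, in the same order. Over all genes it called 0.251% higher and 0.374% lower for ABA in Col-0, 0.0446% and 0.0948% for ABA in dxo1, 0.0613% and 0.128% for dxo1 under NT, and 0.100% and 0.463% for dxo1 with ABA. DESeq2's Wald test called 2 members higher for ABA in Col-0, where 1.31% of all genes were higher, and 1 lower for dxo1 with ABA, where 1.22% were lower. For dxo1 against Col-0 with ABA, 46 of 60 members had a ratio change below 0, with a median log2 of -0.29 over 60S and -0.39 over 40S genes. Over all genes, 9750 of 17930 were below 0, with a median of -0.12. Without the first dxo1 ABA total RNA library the medians were -0.04 over 60S, -0.11 over 40S and 0.08 over all genes; without the second they were -0.33, -0.65 and -0.05.

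In the NAD libraries 1 ribosomal protein gene passed the test, AT3G24830, which encodes uL13 and lies at chr3:9064525-9066180 on the plus strand. Its NAD level was 114 and 128 CPM in dxo1 with ABA, against 16.4 and 34.1 CPM in Col-0 with ABA. Under NT it was 103 and 133 CPM in dxo1, against 53.7 and 40.9 CPM in Col-0. All 4 dxo1 libraries were above all 4 Col-0 libraries. The log2 change was 2.13 ± 0.36 with ABA (adjusted p = 0.02615) and 1.31 ± 0.32 under NT (adjusted p = 0.08689). The call was lost without the second dxo1 ABA library, under library size scaling and with the replicate number as a block. Without the second Col-0 ABA library 4 members passed, as did 3.74% of all genes. The comparison with ABA rests in part on the first Col-0 ABA library, which had 561 member counts. Of 3814 genes tested, 0.0524% were higher and 0.105% lower in dxo1 with ABA.

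Otherwise the NAD levels of members differed by less than the test could call. Of 55 members tested, edgeR called 0 for dxo1 against Col-0 under NT, with 9 at an unadjusted p under 0.05; 0 for ABA against NT in dxo1, with 1; and 0 for ABA against NT in Col-0, with 10. Over all 3814 genes, 455, 231 and 399 were at that threshold in the same order. DESeq2's Wald test called 0 in each. With nuclear protein-coding genes alone, 3 members were higher for dxo1 under NT, and 1.56% of those genes were called in either direction. Over all genes 0.262% were higher and 0.0524% lower for dxo1 under NT, 0.131% and 0.236% for ABA in dxo1, and 0.420% and 0.0524% for ABA in Col-0. The median log2 change for dxo1 against Col-0 was 0.40 over 60S and 0.27 over 40S genes with ABA, and 0.28 and 0.22 under NT, against 0.04 and 0.00 over all genes. With ABA these were 0.60, 0.69 and 0.53 over all genes without the second Col-0 NAD library, and the 40S median was 0.15 without the first Col-0 and 0.14 without the first dxo1 NAD library. Under NT they were 0.14, 0.06 and -0.02 without the second dxo1 NAD library. PGY1, a uL1 gene known for its part in leaf polarity, had the next smallest adjusted p under NT with STV1. PGY1 had 50.6 and 87.3 CPM in dxo1 under NT, against 25.2 and 18.9 CPM in Col-0 under NT, a log2 difference of 1.62 ± 0.44 (adjusted p = 0.1097).

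In dxo1, more ribosomal protein genes were called higher than lower in NAD over total RNA under both treatments; with library size scaling 0 were higher in any condition. Of 57 members tested, 13 were higher and 1 lower in dxo1 with ABA, 12 higher and 1 lower in dxo1 under NT, 3 higher and 0 lower in Col-0 with ABA, and 1 higher and 1 lower in Col-0 under NT. Without the low-count filter, the call in Col-0 with ABA was 1 lower and 0 higher. Over all 5475 genes, 5.37% were higher and 6.03% lower in dxo1 with ABA, 7.03% and 6.45% in dxo1 under NT, 1.17% and 1.75% in Col-0 with ABA, and 1.52% and 2.76% in Col-0 under NT. The median log2 ratio was 0.68 over 60S and 0.84 over 40S genes in dxo1 with ABA, 0.44 and 0.61 in Col-0 with ABA, 0.42 and 0.77 in dxo1 under NT, and 0.07 and 0.40 in Col-0 under NT. Over all genes it was -0.05, -0.11, 0.01 and 0.03 in the same order. Without the first dxo1 ABA total RNA library the 60S median with ABA in dxo1 was 1.05, and without the second 0.44. Without the second Col-0 ABA NAD library the 40S median in Col-0 with ABA was 0.23, against -0.83 over all genes. The 60S median in Col-0 was 0.29 without the second ABA total RNA library and 0.31 without the second NT total RNA library, and the 40S median under NT was 0.60 without the first NT total RNA library. The ratio was above 0 in all 4 conditions in 28 of the 57 members (12 of 32 60S genes and 16 of 25 40S genes) and below 0 in all 4 in 3 members. How many of all genes stayed on 1 side of 0 was not counted. Of the nuclear genes of plastid ribosomal proteins, 9 of 30 were higher in dxo1 with ABA and 12 of 30 in dxo1 under NT, and 2 of 30 in Col-0 with ABA and 2 of 30 in Col-0 under NT.

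The genes that passed in 3 conditions were BBC1 (eL13), AT2G19730 (eL28) and AT1G01100 (P1). BBC1 had 50.8 and 45.0 CPM in NAD against 24.4 and 16.4 CPM in total RNA of dxo1 with ABA, a log2 ratio of 1.63 ± 0.36 (adjusted p = 0.004872). Under NT in dxo1 it had 50.6 and 47.4 CPM in NAD against 9.34 and 14.3 CPM in total RNA, a log2 ratio of 2.397 ± 0.39 (adjusted p = 0.0002379). Under NT in Col-0 it had 56.2 and 47.2 CPM in NAD against 12.5 and 15.1 CPM in total RNA, a log2 ratio of 2.23 ± 0.40 (adjusted p = 0.0009497). On levels scaled within each assay, NAD libraries were above total RNA libraries in each of these sets. Those levels are not on a common scale, so the separation depends on the scaling and the log2 ratio cannot be read from them. AT1G01100 had a log2 ratio of 2.00 ± 0.37 in dxo1 with ABA, 1.65 ± 0.38 in Col-0 with ABA and 1.48 ± 0.36 in dxo1 under NT. AT2G19730 had 1.49 ± 0.40, 1.87 ± 0.48 and 2.00 ± 0.42 in the same 3 conditions.

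AT5G02870 went the other way. It had 53.9 and 59.1 CPM in NAD against 155 and 444.5 CPM in total RNA of dxo1 with ABA, a log2 ratio of -1.996 ± 0.44 (adjusted p = 0.005059). Under NT in dxo1 it had 33.1 and 43.6 CPM in NAD against 223 and 332 CPM in total RNA, a log2 ratio of -2.52 ± 0.46 (adjusted p = 0.0007425). Its total RNA level varied between replicates by more than that of most members.

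**Figure D5:**
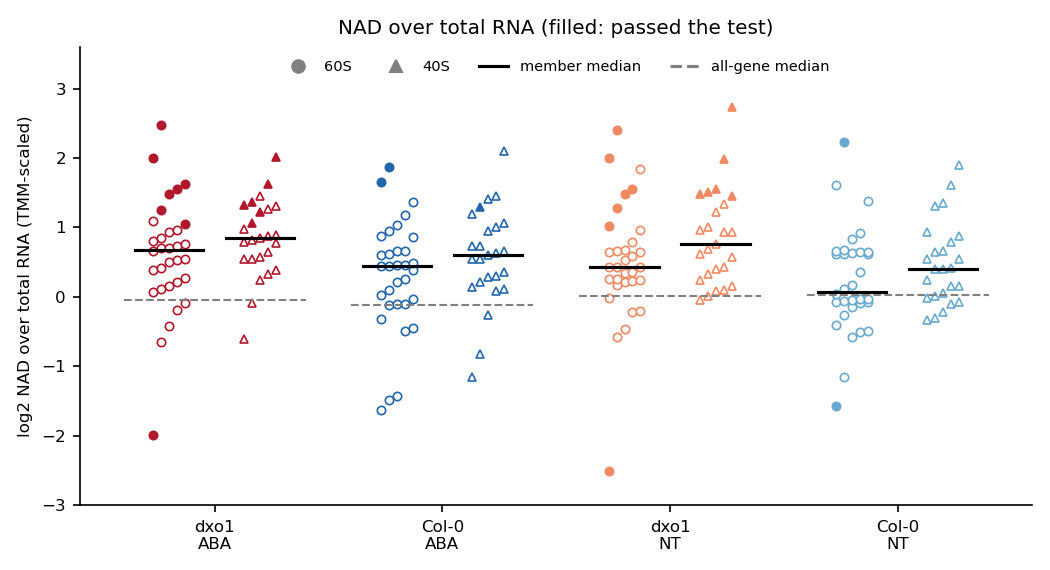
log2 NAD over total RNA (vertical axis, TMM-scaled) of each 60S (circles) and 40S (triangles) gene tested in 4 conditions; filled points passed the test, black bars are medians of the members and dashed lines medians of all genes. The member medians lie above the all-gene medians, by least for 60S genes in Col-0 under NT.

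The calls of NAD over total RNA were sensitive to single libraries and to scaling. In dxo1 with ABA the count of 14 became 2 without either NAD library or the second total RNA library, and 18 without the first total RNA library. In dxo1 under NT the count of 13 became 3 to 5 without any 1 of the 4 libraries, with the low count of 3 without the first total RNA library. In Col-0 with ABA the 3 calls were lost without either total RNA library or the second NAD library, and in Col-0 under NT the count of 2 became 1 without either NAD library and 0 without the first total RNA library. No member was called higher when library size was used for scaling, and the only call was 1 member lower in Col-0 with ABA. The change of this ratio between dxo1 and Col-0 passed the test in 0 of 57 members, with 6 at an unadjusted p under 0.05 with ABA and 7 under NT, against 299 and 506 of all 5475 genes. DESeq2's Wald test called 0 in both, and over all genes 0.0183% were called higher and 0% lower under NT and 0% in either direction with ABA.

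The remaining genes of the translation machinery were counted in GMUCT for comparison. The shares of all 19644 genes tested were 14.8% higher and 15.8% lower in dxo1 with ABA, and 10.1% and 10.4% under NT. For ABA against NT they were 14% higher and 12.8% lower in Col-0, and 5.15% and 2.53% in dxo1. The interaction was higher in 4.26% and lower in 4.67% of all genes. Whether the lists below differ from these shares was not tested. Among other cytosolic ribosomal protein genes, dxo1 with ABA was higher in 21 and lower in 11 of 93 60S genes and higher in 7 and lower in 4 of 61 40S genes. Under NT, dxo1 was higher in 23 and lower in 1 of the 93, and higher in 7 and lower in 3 of the 61. ABA in Col-0 was higher than NT in 21 and lower in 1 of the 93, and higher in 12 and lower in 1 of the 61. Nuclear genes of plastid ribosomal proteins were lower in dxo1 in 8 of 30 with ABA and in 9 of 30 under NT, and higher in 2 and 0. Of 17 ribosome biogenesis factors, 7 rose with ABA in Col-0 and 0 in dxo1, and the interaction was lower in 7. Of 22 translation factors, 10 were lower in dxo1 with ABA and 1 higher, and under NT 5 were lower and 1 higher.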

How the data were processed

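Total RNA, NAD-capped RNA and uncapped or cleaved RNA (GMUCT) were sequenced as strand-specific 50 nt single-end reads, per the labels' protocols. Reads were trimmed with cutadapt, aligned with STAR 2.4.2a to TAIR10 and counted per gene with HTSeq, per the submitters' processing notes. The deposited values are raw counts per gene, 1 file per library. Counts were tested with edgeR 4.0.16 in R 4.3.3 (TMM scaling, filterByExpr with a minimum count of 10, quasi-likelihood F test, Benjamini-Hochberg threshold 0.05) over all genes, with 1 fit per assay over its 8 libraries, and joint fits of NAD or GMUCT with total RNA. Values after ± are standard errors of log2 changes unless given as SD. CPM are TMM-scaled within an assay. Alternatives were DESeq2 1.42.0, other scalings, no filter, nuclear protein-coding genes alone, a replicate block and leaving out each library. The code was tested on simulated data. Names, coordinates and promoters are from RefSeq TAIR10.1. Named genes include the largest called changes (up to 4 per direction and subunit) with at least 5 CPM and groups that do not overlap. Others are their paralogues, or the 2 smallest p where none was called. Motif, level and ratio examples were chosen after values were seen. Further GMUCT calls are named to complete a count: AT5G02870 and AT1G77940 with ABA, RPS5B under NT, and P40 and AT3G02080 for ABA in Col-0. These further calls were not followed gene by gene with 1 library left out. The members and gene lists were chosen with earlier results of these data known. Read depth limits total RNA and NAD most, where the median member had 15 to 59 and 6 to 48 counts.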

Additional observations from a re-analysis of the deposited data

Results flagged for a closer look

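The response to ABA in GMUCT differed between dxo1 and Col-0 by the interaction test in 2 of 60 ribosomal protein genes, a smaller share than the 4.26% higher and 4.67% lower among all genes tested. For EMB3010 (eS6) the difference in log2 change was -1.005, and for AT2G21580 (eS25) it was -0.76. Each had its highest mean in Col-0 with ABA. Neither call was kept in every fit with 1 library left out: EMB3010 passed in 3 of 8 such fits and AT2G21580 in 1 of 8.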

How the results depend on the processing

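Of 168 counts of called members under other settings, 146 stayed within 1.5 times the reported count. With 1 library left out, 108 of 144 did so. A count of 0 that stayed at 0 was included among those that stayed. The reported count was 0 in all total RNA comparisons and all changes of a ratio, among others. Library size scaling gave 19 calls in GMUCT for dxo1 against Col-0 under NT, 25 with ABA and 1 for the interaction; 0 in NAD for dxo1 against Col-0 with ABA; for NAD over total RNA 0 in dxo1 with ABA, 0 in dxo1 under NT, 1 in Col-0 with ABA and 0 in Col-0 under NT; and for GMUCT over total RNA 55, 54, 54 and 53 in that order. Under it these log2 GMUCT over total RNA ratios reversed. In dxo1 with ABA they were AT5G02870 0.49, AT3G62870 0.43, RP1 0.35, AT2G32060 0.59, AT5G15200 0.89 and RPS5B 1.70. In dxo1 under NT they were emb2386 0.11, RP1 0.16, AT5G02870 0.29, AT5G15200 0.67, AT2G32060 1.19 and AT2G41840 1.61. In Col-0 with ABA they were AT5G02870 0.11, RP1 0.18, AT3G62870 0.54, AT2G32060 0.92 and AT5G15200 0.99. In Col-0 under NT they were emb2386 0.0216, RP1 0.26, AT3G62870 0.45, AT5G15200 0.46, AT2G41840 1.44 and EMB3010 1.49. Nuclear protein-coding genes alone gave 3 calls in NAD for dxo1 under NT. No low-count filter gave 4, 5, 1 and 1 calls for NAD over total RNA in dxo1 with ABA, dxo1 under NT, Col-0 with ABA and Col-0 under NT, of which 3, 4, 0 and 1 were higher. DESeq2's Wald test gave 6 for NAD over total RNA in Col-0 with ABA, 2 for the change of GMUCT over total RNA by ABA in Col-0 and 1 for dxo1 with ABA. The cause was not tested.

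Deviations of samples with the same replicate number correlated at r of 0.024 to 0.266 in total RNA, where 3 of 6 pairs of groups were over 0.1, at -0.057 to 0.049 in NAD and at -0.051 to 0.118 in GMUCT. Since not every pair was over 0.1 and the labels name no shared batch, the samples were taken to share only a number. With the replicate block, calls were 0 in NAD for dxo1 against Col-0 with ABA, 6 rather than 14 for NAD over total RNA in dxo1 with ABA and 0 rather than 3 in Col-0 with ABA.

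With 1 library left out, total RNA counts ran from 0 to 1 for ABA in dxo1 and 0 to 5 for dxo1 with ABA. GMUCT counts ran from 2 to 6 for ABA in Col-0, 0 to 2 for ABA in dxo1, 2 to 13 for dxo1 under NT, 9 to 12 for dxo1 with ABA and 0 to 4 for the interaction. NAD counts ran from 0 to 1 for ABA in Col-0 and 0 to 4 for dxo1 with ABA. NAD over total RNA ran from 2 to 18 in dxo1 with ABA, 3 to 5 in dxo1 under NT, 0 to 3 in Col-0 with ABA and 0 to 2 in Col-0 under NT. GMUCT over total RNA ran from 29 to 33, 27 to 29, 25 to 30 and 21 to 30 in that order. Its change ran from 0 to 1 for ABA in dxo1 and 0 to 2 for dxo1 with ABA.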
